A study of Mus musculus with 12 samples.

Results

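Levels of lipocalin 2 (Lcn2), of the acute-phase and cytokine genes Saa3 and Il6, and of the chemokine genes Ccl2, Ccl7, Cxcl1, Cxcl5, Cxcl12 and Cxcl15 were compared between fibroblast cultures lacking Sos1, Sos2 or both. The genes were chosen by name, from a list of 10 symbols drawn up because Lcn2 passed the test between Sos2KO and WT in fits with a term for a spike-in control and in no fit without one. Of the 10 symbols, 9 were measured among 19505 genes, and C3 was not analysed here. The products of Sos1 and Sos2 are exchange factors that load RAS with GTP. RNA of primary mouse embryonic fibroblasts was hybridised to 12 Affymetrix arrays, 3 each for cultures lacking both genes (Sos1/2DKO), Sos1 alone (Sos1KO), Sos2 alone (Sos2KO) and neither (WT). All 4 groups, WT included, came from embryos at day 13.5 of gestation and a strain labelled C57/BL6, grew in DMEM with 10% serum, received 4-hydroxytamoxifen for 12 days and were collected before confluence. The labels do not name the alleles, a Cre driver or the embryo behind each culture, so the p-values below measure the spread between cultures that may or may not share a litter.

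Lcn2 encodes a secreted protein that binds bacterial siderophores and withholds iron from bacteria, and it is induced in many cell types by interleukin 1 and interleukin 17 through NF-kappa-B and its co-activator I-kappa-B-zeta. Saa3 is an acute-phase serum amyloid made outside the liver, and Il6 encodes the cytokine that drives the acute-phase response in the liver. Ccl2 and Ccl7 draw monocytes through the receptor CCR2, the products of Cxcl1, Cxcl5 and Cxcl15 are chemokines of the class that attracts neutrophils, and Cxcl12, made by many stromal cells, acts through CXCR4.

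The 250 bases before the annotated start are given for the members of widest range, Lcn2 and Cxcl15, and for Cxcl1, the gene that follows Cxcl15 on chromosome 5 and did not pass the test in any comparison. RefSeq windows of build GRCm38.p6 were found for 6 of the 9 members. Capitals mark matches, on either strand, to the consensus of NF-kappa-B (the kappa B site), C/EBP (TTGCNNAA), STAT (TTCNNNGAA) or AP-1 (TGANTCA). Lcn2 (chr2:32387740-32387989, minus strand), Cxcl15 (chr5:90794284-90794533, plus strand) and Cxcl1 (chr5:90890995-90891244, plus strand) read, 5′ to 3′:
Lcn2: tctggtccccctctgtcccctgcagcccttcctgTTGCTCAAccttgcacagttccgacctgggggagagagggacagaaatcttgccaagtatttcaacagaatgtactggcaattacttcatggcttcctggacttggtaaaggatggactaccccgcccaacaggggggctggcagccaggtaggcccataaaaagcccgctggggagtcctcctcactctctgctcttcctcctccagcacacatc
Cxcl15: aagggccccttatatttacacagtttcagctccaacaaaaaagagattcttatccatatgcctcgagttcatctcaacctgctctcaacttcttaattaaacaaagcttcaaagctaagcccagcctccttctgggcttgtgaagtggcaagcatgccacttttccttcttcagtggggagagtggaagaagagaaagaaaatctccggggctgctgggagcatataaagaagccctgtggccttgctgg
Cxcl1: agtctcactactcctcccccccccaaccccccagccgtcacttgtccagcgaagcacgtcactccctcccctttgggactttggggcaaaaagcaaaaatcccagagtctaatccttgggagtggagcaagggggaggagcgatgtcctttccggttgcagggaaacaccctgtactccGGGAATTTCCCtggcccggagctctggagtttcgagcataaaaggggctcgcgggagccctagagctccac
The Lcn2 window held a C/EBP match, the Cxcl1 window overlapping kappa B matches, and the Cxcl15 window none of the 4 motifs. Of all 32851 windows of this length, 9.56% held the C/EBP letters, 3.9% the kappa B consensus, 7.02% the STAT letters and 6.75% the AP-1 letters. Of the other members, the Il6 window matched kappa B, C/EBP and AP-1, the Saa3 window matched C/EBP, and the Cxcl12 window matched none.

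The deleted genes checked the labels. Sos1 averaged 7.52 in Sos1/2DKO and 7.27 in Sos1KO, against 8.98 in Sos2KO and 9.08 in WT, and Sos2 averaged 7.86 in Sos1/2DKO and 7.74 in Sos2KO, against 8.88 in both Sos1KO and WT (mean log2 RMA levels, n = 3 each). Sos1 passed in Sos1KO against WT (adjusted p = 0.0105 by limma) and both genes in Sos1/2DKO against WT (0.00507 for Sos1 and 0.00956 for Sos2). Sos2 did not pass in Sos2KO against WT (log2 fold change -1.14, adjusted p = 0.278 by limma) or in Sos1/2DKO against Sos1KO (-1.02, 0.266), although its arrays did not overlap in either. No detection call comes with RMA levels, and weak signal was judged against an intron guide, the level that 75% of 5222 control probe sets in introns did not exceed on the same array (5.01 to 5.76). All 11 measured fibroblast markers exceeded it on every array except in Sos2KO, where the count was 10 or 11. A bacterial spike-in transcript, Dap, stood between 6.01 and 9.29 on 5 arrays, which were Sos1/2DKO replicate 1, Sos1KO replicate 3 and all of Sos2KO, and between 3.89 and 4.13 on the other 7. WT thus had no array with the spike-in and Sos2KO none without it, so in their comparison the spike-in and the genotype cannot be told apart.

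Lcn2 was high on 2 of the 12 arrays and low on the others. Its log2 levels were 8.35, 4.61 and 4.65 in Sos1/2DKO replicates 1 to 3, 4.22, 4.11 and 9.38 in Sos1KO replicates 1 to 3, and 4.47, 3.98 and 3.90 in Sos2KO, against 4.55, 4.32 and 3.88 in WT. The high arrays were the only ones of Sos1/2DKO and Sos1KO that carried the spike-in, while the Sos2KO arrays, which all carried it, were as low as WT. On the 10 low arrays Lcn2 lay under the intron guide. Its range over the 12 arrays, 5.50 log2 units, stood at the 99.9th percentile of all genes, and its mean level at the 29.4th.

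**Figure D1:**
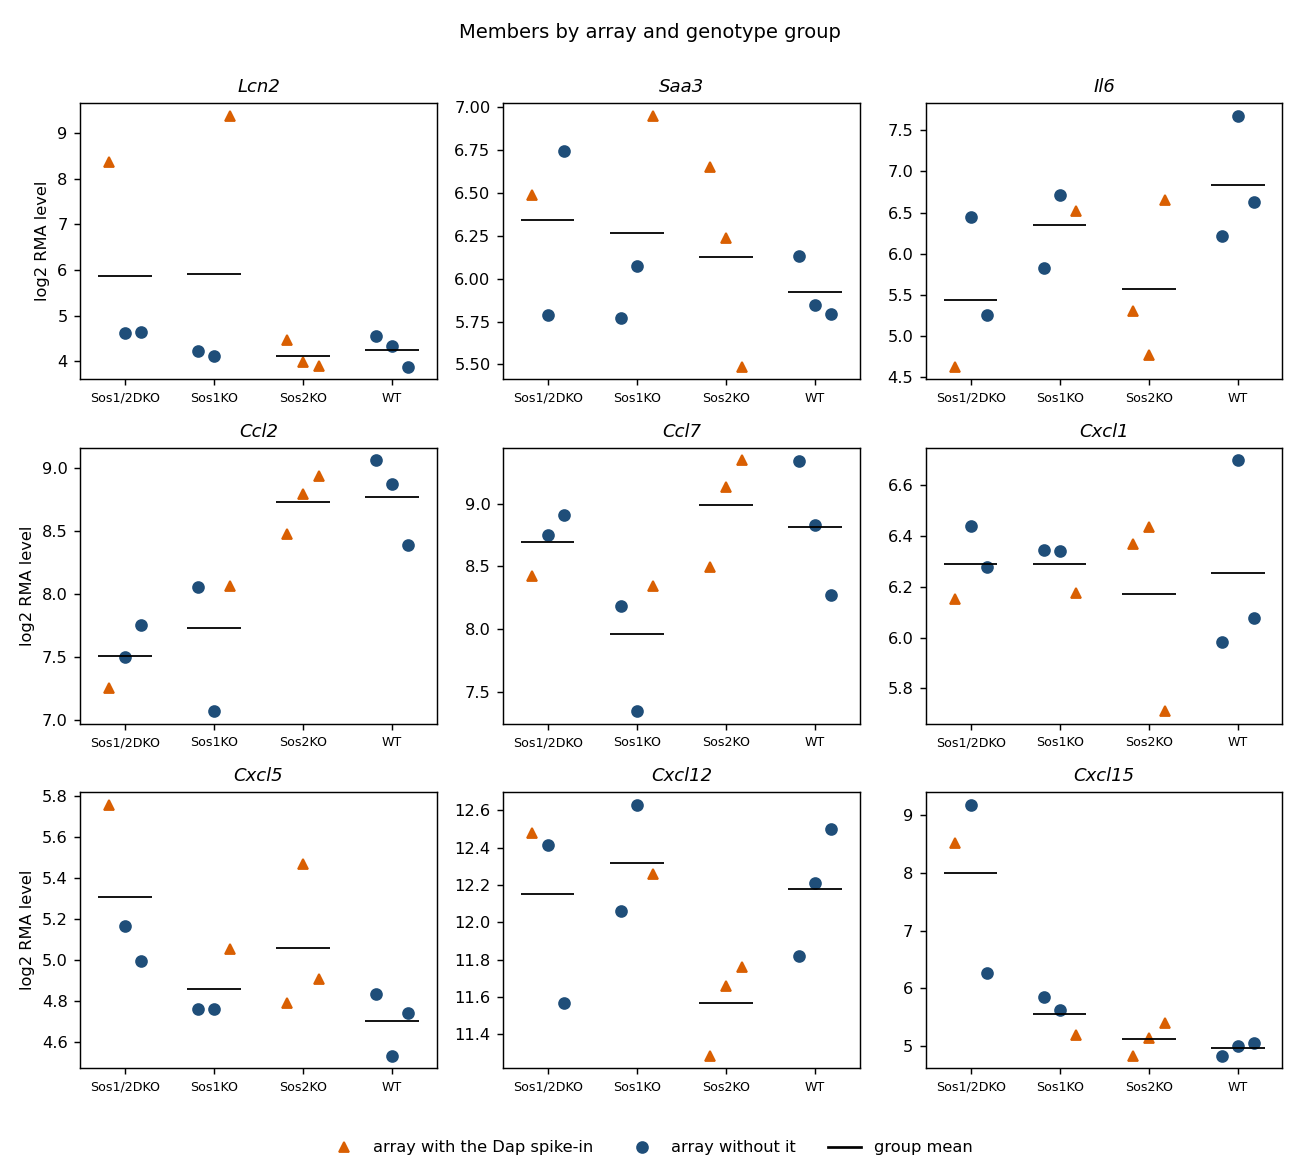
Log2 RMA levels (vertical axes, each with its own range) of the 9 measured genes on the 12 arrays, by genotype group, with replicates 1 to 3 from left to right within a group; triangles are arrays with the Dap spike-in, circles arrays without it, and bars group means. Lcn2 reached 8.35 and 9.38 on 2 arrays and at most 4.65 on the others, while Cxcl15 was above 6 on all 3 Sos1/2DKO arrays and on no other.

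Group means of Lcn2 followed those 2 arrays. They were 5.87 ± 2.15 in Sos1/2DKO, 5.90 ± 3.01 in Sos1KO and 4.12 ± 0.31 in Sos2KO, against 4.25 ± 0.34 in WT (SD, n = 3 each), and no neighbours in that order differed beyond their spread. The log2 fold change was 1.62 in Sos1/2DKO against WT (SE of 1.2, adjusted p = 0.499 by limma) and 1.65 in Sos1KO against WT (SE of 1.2, adjusted p = 0.783 by limma). Neither passed the test. Without Sos1/2DKO replicate 1 the first became 0.38, and without Sos1KO replicate 3 the second became -0.09, so each rested on 1 array.

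Sos2KO against WT is the contrast that chose the gene, and its values are a description. Lcn2 differed by -0.13 log2 units without such a term, and 0 of 9 members and 0 of 19505 genes (0%) passed in limma, with 2 members and 2711 genes at an unadjusted p under 0.05, and 720 genes called without Sos2KO replicate 3. With all arrays, the deleted gene Sos2 was itself among the genes not called, so a lack of calls there does not show a lack of change. Same-numbered arrays of these 2 groups deviated together, and with the replicate number as a block in the 2 groups alone, chosen after seeing the data, 0 members and 17 genes passed in limma. With a term for the spike-in, the difference became -4.60 (SE of 0.41, adjusted p = 0.00239 by limma), and Lcn2 was then the 1 gene called. The term was estimated from Sos1/2DKO and Sos1KO, the groups that hold both kinds of array, where it took the value 4.47 for Lcn2, and the same amount was subtracted from the Sos2KO arrays. Estimated without Sos1KO replicate 3 or without Sos1/2DKO replicate 1, alternatives chosen after seeing the data, the term made the difference -3.86 and -5.35 (adjusted p = 0.0131 and 0.000491 by limma). Measured Lcn2 levels in Sos2KO, 3.90 to 4.47, overlapped those in WT, 3.88 to 4.55.

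**Figure D2:**
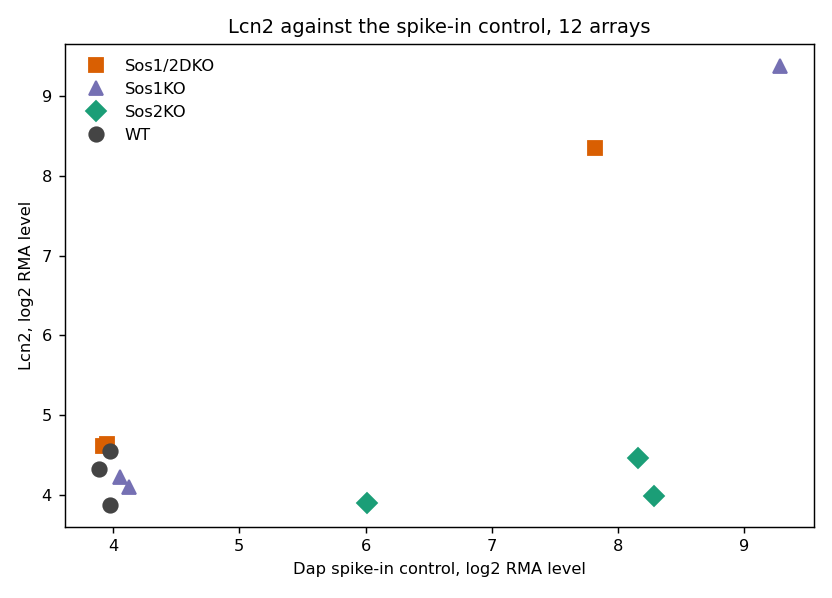
Log2 RMA level of Lcn2 (vertical axis) against that of the Dap spike-in control (horizontal axis) on the 12 arrays, with a symbol for each genotype group. The 3 Sos2KO arrays carried the spike-in at 6.01 to 8.29 with Lcn2 at 3.90 to 4.47, while Sos1/2DKO replicate 1 and Sos1KO replicate 3 carried it with Lcn2 at 8.35 and 9.38.

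The spike-in term moved the other members less. Its value was 0.63 for Saa3, -0.49 for Il6, 0.48 for Cxcl5 and between -0.19 and 0.20 for the remaining 5. Within the 5 arrays with the spike-in, Lcn2 was 4.24 log2 units higher in Sos1/2DKO than in Sos2KO (adjusted p = 0.00288 by limma) and 5.26 higher in Sos1KO than in Sos2KO (adjusted p = 0.00192 by limma). Those fits hold 1 Sos1/2DKO and 1 Sos1KO array, assumed to vary like the 3 Sos2KO arrays, and restate the levels that drew attention to the gene. Over all 12 arrays the same differences were 1.76 (adjusted p = 0.442 by limma) and 1.79 (adjusted p = 0.433 by limma).

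Neutrophils and epithelia are known sources of Lcn2, and the mean levels of their markers on those 2 arrays lay within or below those of the other arrays. The mean of 9 neutrophil markers was 4.95 on Sos1/2DKO replicate 1 and 4.79 on Sos1KO replicate 3, within the 4.70 to 5.34 of the 12 arrays, and 2 to 4 of the 9 exceeded the intron guide on any array. The mean of 10 epithelial markers was 4.95 and 4.71 on the same arrays, where the 12 spanned 4.71 to 5.52. The macrophage marker mean was 5.42 on Sos1/2DKO replicate 1 and 6.44 on Sos1KO replicate 3, where the 12 arrays spanned 5.10 to 7.73. Most neutrophil markers lay under the guide, and the part of other cell types in the Lcn2 level was not tested.

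Genes whose levels ran like those of Lcn2 over the 12 arrays were sought among 13116 with a mean level at or above the 30th percentile. Members and predicted, olfactory, vomeronasal, immunoglobulin segment and small RNA genes were left out. The most alike were Pax8, a transcription factor of kidney and thyroid (Pearson's r = 0.93, Spearman's rho = 0.64), Acan, the cartilage proteoglycan aggrecan (r = 0.91, rho = 0.66), the cadherin Cdh4 (r = 0.90, rho = 0.31), the claudin Cldn19 (r = 0.90, rho = 0.83) and the chitinase-like Chil1 (r = 0.88, rho = 0.77). The 12 points are arrays of 4 genotypes with and without the spike-in, each gene's level comes from the same hybridisations as that of Lcn2, and the genes were picked for the correlation. Acan stood at 9.71 on Sos1/2DKO replicate 1 and 9.75 on Sos1KO replicate 3, and between 6.38 and 8.09 on the other 10 arrays. Pax8 stood at 7.25 and 8.58 on the same arrays and between 5.90 and 6.54 on the others. Over the other 10 arrays r was 0.66 for Cldn19, 0.56 for Chil1, 0.40 for Acan, 0.31 for Pax8 and -0.29 for Cdh4.

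Saa3 was measured above the intron guide on all 12 arrays and varied little by genotype. Its levels were 6.49, 5.79 and 6.75 in Sos1/2DKO, 5.77, 6.07 and 6.95 in Sos1KO and 6.65, 6.24 and 5.49 in Sos2KO, against 6.14, 5.85 and 5.79 in WT. The arrays of all groups overlapped. The highest Saa3 level, 6.95, was on Sos1KO replicate 3, which was also the array of highest Lcn2. Group means ran in the order Sos1/2DKO 6.34, Sos1KO 6.27, Sos2KO 6.12 and WT 5.93, with SDs of 0.18 to 0.61, and no neighbours differed beyond their spread.

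Il6 varied widely within groups. Its levels were 4.62, 6.44 and 5.26 in Sos1/2DKO, 5.83, 6.71 and 6.52 in Sos1KO and 5.30, 4.77 and 6.65 in Sos2KO, against 6.21, 7.68 and 6.62 in WT. WT replicate 2 was the highest array and Sos1/2DKO replicate 1 the lowest, and the arrays of all groups overlapped. Group means were 5.44 ± 0.92 in Sos1/2DKO, 6.35 ± 0.47 in Sos1KO and 5.57 ± 0.97 in Sos2KO, against 6.84 ± 0.76 in WT (SD, n = 3 each). The log2 fold change of -1.40 in Sos1/2DKO against WT did not pass (SE of 0.53, adjusted p = 0.163 by limma), nor did it under 15 of 16 alternatives. Without Sos1/2DKO replicate 2 it was -1.90 with a limma adjusted p of 0.0491. The Sos1/2DKO arrays left in that fit, replicates 1 and 3, both lay under the intron guide for Il6, as did Sos2KO replicate 2. The size of these differences is therefore uncertain. The macrophage marker mean was highest on the array of highest Il6, at 7.73, and its part in the Il6 level was not tested.

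Ccl2, a monocyte attractant made by fibroblasts, was lower in Sos1/2DKO. Its levels were 7.25, 7.50 and 7.75 in Sos1/2DKO, 8.05, 7.07 and 8.06 in Sos1KO and 8.47, 8.79 and 8.94 in Sos2KO, against 9.06, 8.87 and 8.39 in WT. Every Sos1/2DKO and Sos1KO array lay below every Sos2KO and WT array, and within each of those pairs the arrays overlapped. Arrays of Sos1/2DKO and WT were apart in 24.5% of all genes. For other sets of groups no such share is given here, for this gene or those below, so how common such a separation is remains unknown. The mean fell 2.42-fold in Sos1/2DKO against WT, to 7.50 ± 0.25 in Sos1/2DKO, against 8.77 ± 0.35 in WT (SD, n = 3 each; log2 fold change -1.27, SE of 0.27, adjusted p = 0.0174 by limma). Against Sos2KO (8.73 ± 0.24) the log2 fold change of Sos1/2DKO was -1.23 (SE of 0.27, adjusted p = 0.0208 by limma).

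Sos1KO did not pass for Ccl2. Its mean was 7.73 ± 0.57, the log2 fold change was -1.05 against WT (SE of 0.27, adjusted p = 0.0995 by limma) and -1.01 against Sos2KO (adjusted p = 0.0573 by limma), and Sos1/2DKO differed from Sos1KO by -0.23 (95% interval -0.81 to 0.36). The call in Sos1/2DKO against WT was lost without WT replicate 1, WT replicate 2 or Sos1/2DKO replicate 1 (adjusted p = 0.0896, 0.0592 and 0.0586 by limma), while the log2 fold change stayed between -1.47 and -1.13, and within the arrays without the spike-in it was -1.15 (adjusted p = 0.105 by limma). Against Sos2KO it was lost without Sos2KO replicate 2 or Sos1/2DKO replicate 1 (adjusted p = 0.0712 and 0.0514 by limma), with the spike-in term (0.111), within the arrays with the spike-in (0.0854) and with the mean of the high-GC background control probes as a covariate (0.0532). Macrophage markers, which could carry Ccl2, averaged 5.42 to 6.44 on the Sos1/2DKO arrays and 6.44 to 7.40 on the Sos1KO arrays, against 5.93 to 7.73 in WT, and 0 of 15 passed in limma in either comparison. In Sos1/2DKO against WT 14 of the 15 were below 0 with a median of -0.63, and in Sos1KO against WT 7 were below 0 with a median of 0.15. Their part in the Ccl2 level was not tested, and in bulk RNA fewer cells of a type and less RNA per cell cannot be told apart.

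Ccl7, the gene next to Ccl2 on chromosome 11 in the RefSeq order, did not follow it in Sos1/2DKO. Its levels were 8.42, 8.75 and 8.91 in Sos1/2DKO, 8.19, 7.34 and 8.35 in Sos1KO and 8.49, 9.13 and 9.35 in Sos2KO, against 9.34, 8.83 and 8.27 in WT. The Sos1KO arrays lay below all Sos1/2DKO and Sos2KO arrays and overlapped the lowest WT array. Ccl7 passed in no comparison: the log2 fold change was -0.86 in Sos1KO against WT (SE of 0.32, adjusted p = 0.283 by limma), -1.03 in Sos1KO against Sos2KO (adjusted p = 0.0836 by limma) and -0.12 in Sos1/2DKO against WT (95% interval -0.81 to 0.57).

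The difference between the 2 log2 levels within an array, Ccl7 minus Ccl2, separated Sos1/2DKO from the rest. It was 1.17, 1.25 and 1.15 in Sos1/2DKO, 0.13, 0.28 and 0.28 in Sos1KO and 0.02, 0.34 and 0.41 in Sos2KO, against 0.28, -0.04 and -0.11 in WT. The size of the difference on any array depends on the probes, and what can be compared is its change between groups, which was 1.15 log2 units in Sos1/2DKO against WT, 0.96 against Sos1KO and 0.93 against Sos2KO. Each had an exact two-sided permutation p of 0.1, the smallest that 3 against 3 arrays allow, and Sos1KO and Sos2KO differed from WT by 0.19 and 0.22 (exact permutation p = 0.3 and 0.2). The measure was chosen after the levels were seen.

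**Figure D3:**
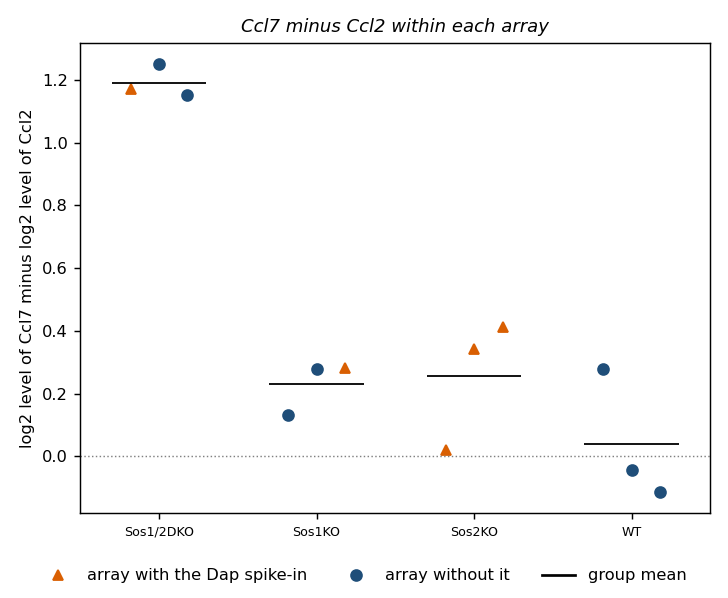
Log2 level of Ccl7 minus log2 level of Ccl2 on each array (vertical axis), by genotype group, with triangles for arrays with the Dap spike-in, circles for arrays without it and bars for group means. The 3 Sos1/2DKO arrays sit between 1.15 and 1.25, and the other 9 between -0.11 and 0.41.

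Cxcl15, named lungkine for its expression in mouse lung epithelium, had the largest fold change of the 9 members against WT. Its levels were 8.53, 9.18 and 6.26 in Sos1/2DKO, 5.85, 5.63 and 5.18 in Sos1KO and 4.83, 5.14 and 5.40 in Sos2KO, against 4.83, 5.0 and 5.06 in WT. All 3 Sos1/2DKO arrays exceeded the other 9, replicate 3 by far less than replicates 1 and 2, and the high arrays included 1 with the spike-in and 2 without it. The Sos1KO arrays lay above the WT arrays without overlap and overlapped Sos2KO. Sos1KO did not pass against WT (adjusted p = 0.879 by limma), and Sos1KO replicate 3 lay under the intron guide. The share of all genes apart between Sos1KO and WT is not given here, and between Sos1/2DKO and WT it was 24.5%. The mean rose to 7.99 ± 1.53 in Sos1/2DKO, against 4.96 ± 0.12 in WT, which is 8.17-fold (SD, n = 3 each; log2 fold change 3.03, SE of 0.53, adjusted p = 0.00813 by limma). No WT array exceeded the intron guide, so the size of the fold is uncertain, and within the arrays without the spike-in the log2 fold change was 2.76 and did not pass (adjusted p = 0.0822 by limma).

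Against Sos2KO (5.12 ± 0.29) the log2 fold change of Cxcl15 in Sos1/2DKO was 2.87 (SE of 0.53, adjusted p = 0.011 by limma), which was lost without Sos2KO replicate 1 (adjusted p = 0.0513 by limma), with the spike-in term (0.0531) and with the high-GC background covariate (0.0851). Against Sos1KO (5.55 ± 0.34) it was 2.44 (SE 0.53) and did not pass with a limma adjusted p of 0.397. Without Sos1/2DKO replicate 3, the lowest of its group, the log2 fold change against Sos1KO became 3.30 with a limma adjusted p of 0.000456. Of the 17 alternatives, the 16 others did not pass. The log2 fold change in Sos1KO against WT was 0.59 (95% interval -0.56 to 1.74).

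Epithelial markers, of the cell type in which Cxcl15 was described, were weak in Sos1/2DKO, though not there alone. The mean of the 10 was 4.74 to 5.11 on the Sos1/2DKO arrays and 4.71 to 5.08 in Sos1KO, against 5.05 to 5.39 in WT. On a Sos1/2DKO array 1 to 5 of them exceeded the intron guide, beside 1 to 4 in Sos1KO, 5 or 6 in Sos2KO and 3 to 5 in WT. The keratins Krt18 and Krt19 fell in Sos1/2DKO against WT, with log2 fold changes of -1.99 (SE of 0.42, adjusted p = 0.0172 by limma) and -1.34 (SE of 0.26, adjusted p = 0.0119 by limma), and 8 of the 10 did not pass. Over the 10 in that comparison, 6 log2 fold changes were above 0 and 4 below, with a median of 0.12 beside 0.06 over all genes. Krt19 also fell in Sos1KO against WT (log2 fold change -1.33, SE of 0.26, adjusted p = 0.0454 by limma). The 7 adipocyte markers had positive log2 fold changes in Sos1/2DKO against WT, the median being 0.90, and 0 of 7 passed in limma. Their mean was 5.96 to 6.66 in Sos1/2DKO, against 5.36 to 5.61 in WT, and the part of these cell types in the Cxcl15 level was not tested.

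The CXC chemokine genes around Cxcl15 did not move with it. In RefSeq order the run on chromosome 5 is Cxcl5, Ppbp, Pf4, Cxcl3, Cxcl15, Cxcl1 and Cxcl2, and the other 6 had log2 fold changes of -0.81 to 0.60 in Sos1/2DKO against WT with limma adjusted p of 0.149 and above. Cxcl1 was nearly level, at 6.15, 6.44 and 6.28 in Sos1/2DKO, 6.35, 6.34 and 6.18 in Sos1KO and 6.37, 6.44 and 5.71 in Sos2KO, against 5.98, 6.70 and 6.08 in WT. Its group means lay between 6.17 and 6.29, and the arrays overlapped throughout.

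Cxcl5 was weak, above the intron guide on 2 of 12 arrays. Its levels were 5.76, 5.16 and 5.0 in Sos1/2DKO, 4.76, 4.76 and 5.05 in Sos1KO and 4.79, 5.47 and 4.91 in Sos2KO, against 4.83, 4.53 and 4.74 in WT. Each Sos1/2DKO array lay above each WT array, and the log2 fold change of 0.60 did not pass (SE of 0.22, adjusted p = 0.149 by limma). The arrays of Sos1/2DKO and WT did not overlap in 24.5% of all genes. Cxcl12, the strongest member, had levels of 12.48, 12.41 and 11.57 in Sos1/2DKO, 12.06, 12.63 and 12.26 in Sos1KO and 11.28, 11.66 and 11.76 in Sos2KO, against 11.82, 12.21 and 12.50 in WT. Its mean stood at the 99.6th percentile of all genes. The Sos2KO arrays lay below those of Sos1KO and WT without overlap, and Sos1/2DKO spanned both. Neither difference passed. The log2 fold change was -0.61 in Sos2KO against WT (SE of 0.26, adjusted p = 0.339 by limma) and 0.75 in Sos1KO against Sos2KO (SE of 0.26, adjusted p = 0.123 by limma). The share of all genes apart in these 2 comparisons is not given here, and nothing is read from the lack of overlap. Between Sos2KO and WT the spike-in and the genotype cannot be told apart.

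**Figure D4:**
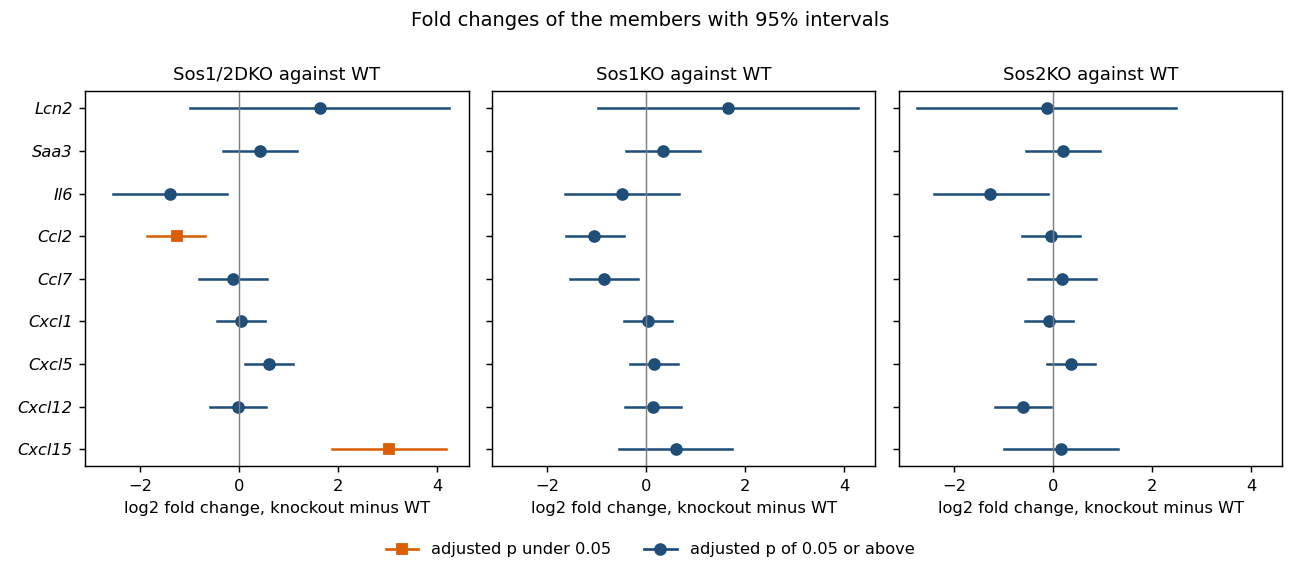
Log2 fold changes (horizontal axis, knockout minus WT) of the 9 genes in Sos1/2DKO, Sos1KO and Sos2KO against WT, with 95% intervals from the limma fit over all genes; squares passed at an adjusted p under 0.05 and circles did not. Cxcl15 at 3.03 and Ccl2 at -1.27 passed in Sos1/2DKO, and Lcn2 has the widest interval in each panel. Each interval uses a spread shared over all 4 groups. For Lcn2 in the Sos2KO panel it therefore reflects the SDs of Sos1/2DKO and Sos1KO (2.15 and 3.01) as well as those of Sos2KO and WT (0.31 and 0.34).

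Counted over the comparisons, 2 of the 9 members passed in Sos1/2DKO against WT, where 1158 of all genes did (5.94%), and the same 2, Cxcl15 and Ccl2, in Sos1/2DKO against Sos2KO, where 1197 did (6.14%). An unadjusted limma p under 0.05 was held by 4 members and 3860 of all 19505 genes in the former, and by 3 members and 4290 genes in the latter. In Sos1KO against WT 0 of 9 passed in limma, beside 121 of all genes (0.62%), with 2 members (Ccl2 and Ccl7) and 2158 of all genes at an unadjusted p under 0.05. Between Sos1/2DKO and Sos1KO 0 of 9 passed in limma, beside 1 gene of all (0.00513%), with 2 members (Cxcl15 and Ccl7) and 1404 of all genes at an unadjusted p under 0.05. In Sos1KO against Sos2KO 0 of 9 passed in limma, beside 836 of all genes (4.29%), with 3 members (Ccl2, Ccl7 and Cxcl12) and 4074 of all genes at an unadjusted p under 0.05. The 3 comparisons with WT share its arrays. These shares moved with single arrays, most downward to 268 genes without WT replicate 1 in Sos1/2DKO against WT, to 339 without Sos2KO replicate 1 in Sos1/2DKO against Sos2KO, to 0 in Sos1KO against WT when WT replicate 1, WT replicate 3 or replicate 2 of Sos1KO was left out, and to 3 without Sos1KO replicate 2 in Sos1KO against Sos2KO. The test of whether both deletions together differ from the sum of each alone passed for 0 of 9 members, the largest value being that of Cxcl15 (2.28 log2 units, adjusted p = 0.907 by limma).

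The authors' deposited tables, which list probe sets at an adjusted p under 0.25, named the same 2 members. In the authors' deposited table for Sos1/2DKO, Cxcl15 had a log2 fold change of 3.03 (adjusted p = 0.0862) and Ccl2 one of -1.27 (adjusted p = 0.0548). The authors' deposited table for Sos1KO listed Cxcl15 at 0.59 (adjusted p = 0.216) and Ccl2 at -1.05 (adjusted p = 0.194). The authors' deposited table for Sos2KO, with 59 probe sets, listed 0 members.

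Other acute-phase genes were higher in Sos1/2DKO than in WT in 2 cases of 23 measured, the 21 others not passing. Over the 6 pathway lists, which hold these and the regulator, complement, cytokine and chemokine genes below, 5 of 125 genes passed in this comparison. That is 4%, below the 5.94% of all genes. In Sos1/2DKO against Sos2KO 3 of 125 passed (2.4%), below the 6.14% of all genes. Nothing is read from either share about the lists. Lbp, which binds lipopolysaccharide and presents it to CD14, had levels of 9.43, 8.88 and 7.33 in Sos1/2DKO, against 5.92, 5.34 and 5.95 in WT, a log2 fold change of 2.81 (SE of 0.57, adjusted p = 0.0147 by limma). The call was lost without WT replicate 1, WT replicate 2 or Sos1/2DKO replicate 1 (adjusted p = 0.0504 to 0.055 by limma). Ptx3, a long pentraxin of innate immunity, had levels of 9.11, 9.33 and 8.83 in Sos1/2DKO, against 8.13, 7.97 and 8.13 in WT, a log2 fold change of 1.01 (SE of 0.16, adjusted p = 0.00652 by limma). In both genes the arrays of Sos1/2DKO and WT did not overlap, as in 24.5% of all genes. In Sos1KO, Lbp stood at 6.24, 7.68 and 8.75 and Ptx3 at 8.31, 8.60 and 8.67, all above the WT arrays, and 0 of 23 genes passed in limma against WT (2158 of all genes had an unadjusted p under 0.05). Within the arrays without the spike-in neither gene passed in Sos1/2DKO against WT (adjusted p = 0.0653 for Lbp and 0.0504 for Ptx3 by limma).

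Over the 23 acute-phase genes the median log2 fold change in Sos1/2DKO against WT was 0.26, beside 0.06 over all genes, with 21 above 0 and 2 below. Only 7 to 15 of the 23 exceeded the intron guide on a Sos1/2DKO array and 7 to 10 on a WT array, so many of these signs come from levels near the background. The neutrophil markers, mostly under the guide, had 8 of 9 above 0 in the same comparison, with a median of 0.17. The mean level of the 23 acute-phase genes was 5.45 to 5.68 on the Sos1/2DKO arrays, 5.14 to 5.43 in Sos1KO and 5.12 to 5.26 in Sos2KO, against 5.04 to 5.11 in WT. The adipocyte markers moved the same way in that comparison (7 of 7 above 0, median 0.90), and their part in the acute-phase levels was not tested. Both Ptx3 and Lbp also passed in Sos1/2DKO against Sos2KO, with log2 fold changes of 0.82 and 2.70 (adjusted p = 0.0146 and 0.0174 by limma). Both calls were lost without Sos2KO replicate 1 (adjusted p = 0.0553 and 0.0652 by limma), and that of Lbp also without Sos2KO replicate 2 or Sos1/2DKO replicate 2 (0.0552 and 0.0501). With the high-GC background covariate neither passed (0.0595 for Ptx3 and 0.0724 for Lbp), and Ptx3 was also lost with the 2 groups alone (0.0783), with the spike-in term (0.0546) and within the arrays with the spike-in (0.352). Lbp was above 8.5 on the 2 arrays of high Lcn2 and on Sos1/2DKO replicate 2, where Lcn2 was 4.61.

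**Figure D5:**
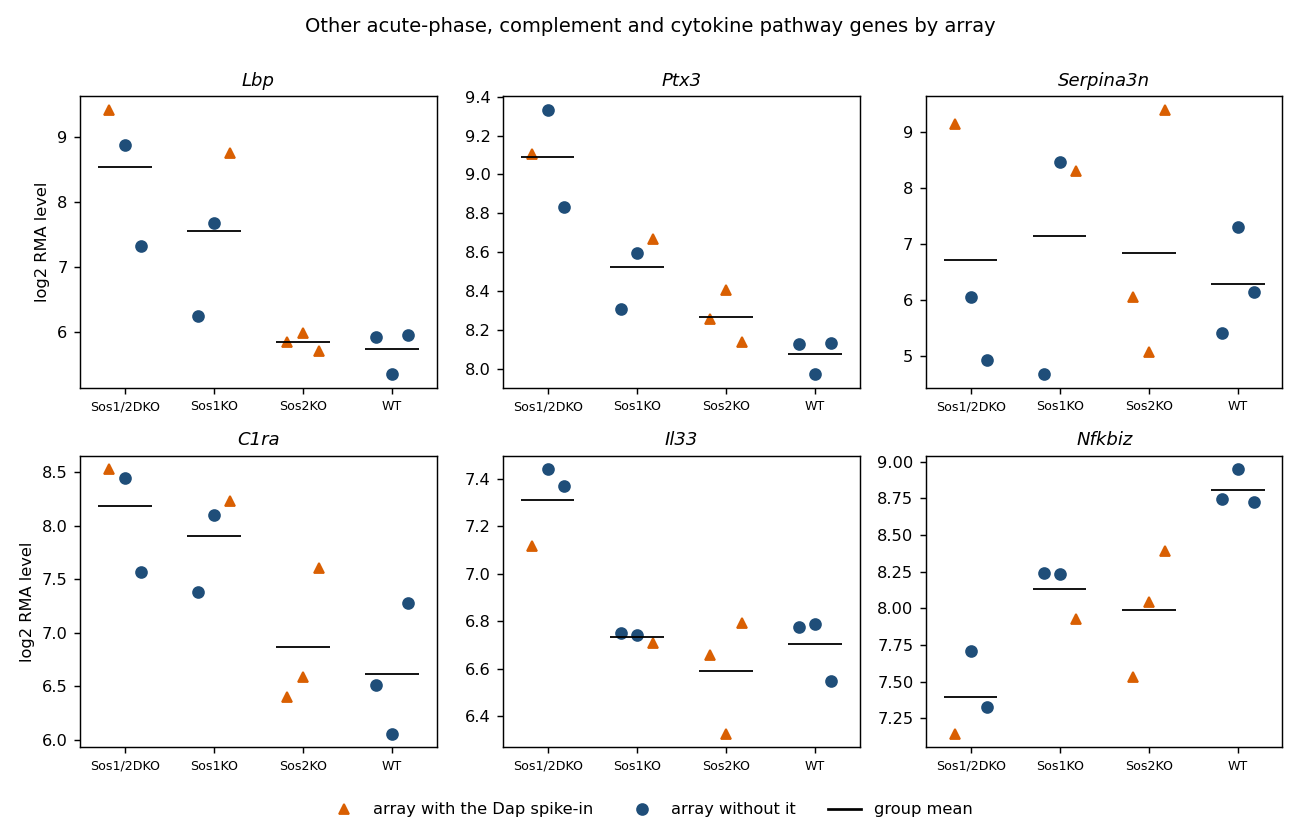
Log2 RMA levels (vertical axes, each with its own range) of 6 genes of the acute-phase, complement and cytokine lists by genotype group, with triangles for arrays with the Dap spike-in, circles for arrays without it and bars for group means. Lbp and Ptx3 were higher and Nfkbiz lower on every Sos1/2DKO array than on every WT array, and Serpina3n ranged over 4.73 log2 units with all groups overlapping. Arrays of Sos1/2DKO and WT were apart in 24.5% of all genes.

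Among the regulators, Nfkbiz, which encodes I-kappa-B-zeta, the co-activator through which Lcn2 is induced, fell in Sos1/2DKO. Its levels were 7.14, 7.71 and 7.33 in Sos1/2DKO, 8.24, 8.23 and 7.93 in Sos1KO and 7.53, 8.04 and 8.39 in Sos2KO, against 8.75, 8.95 and 8.73 in WT. Every WT array lay above every other array, and its lowest level was on Sos1/2DKO replicate 1, an array of high Lcn2. The log2 fold change in Sos1/2DKO against WT was -1.41 (SE of 0.22, adjusted p = 0.00582 by limma), and it passed under each of 16 alternatives. The other 20 of 21 NF-kappa-B and C/EBP regulators did not pass.

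Of 15 complement genes, C1ra, a protease of the classical pathway, was higher in Sos1/2DKO than in WT, with levels of 8.53, 8.45 and 7.57 against 6.52, 6.06 and 7.28 (log2 fold change 1.56, SE of 0.38, adjusted p = 0.0326 by limma). It was called under 9 of 16 alternatives, and not without WT replicate 1, WT replicate 2, Sos1/2DKO replicate 1 or Sos1/2DKO replicate 2 (adjusted p = 0.0692 to 0.125 by limma), with the 2 groups alone (0.0513), with the spike-in term (0.0726) or within the arrays without the spike-in (0.123). Of 30 genes of interleukin 6, interleukin 1 and TNF signalling, Il33, an alarmin of the interleukin 1 family, was higher, with levels of 7.12, 7.44 and 7.37 in Sos1/2DKO, against 6.78, 6.79 and 6.55 in WT (log2 fold change 0.60, SE of 0.16, adjusted p = 0.0409 by limma). It was called under 7 of 16 alternatives, and not without WT replicate 1, 2 or 3 or without Sos1/2DKO replicate 2 or 3 (adjusted p = 0.0777 to 0.161 by limma), nor with the replicate block (0.0768). It also passed against Sos2KO (log2 fold change 0.72, adjusted p = 0.0202 by limma), a call lost without Sos2KO replicate 1, Sos2KO replicate 2 or Sos1/2DKO replicate 2 (0.0541 to 0.0726), with the 2 groups alone (0.12), with the spike-in term (0.145), within the arrays with the spike-in (0.769) and with the high-GC background covariate (0.158). In Sos1/2DKO against WT, 0 of 22 further chemokine genes and 0 of 14 chemokine receptors passed in limma, with medians of -0.11 and 0.11.

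Between the single knockouts, 0 members passed and 4 of the 125 genes of the 6 pathway lists did, each higher in Sos1KO than in Sos2KO. That is 3.2%, below the 4.29% of all genes, and nothing is read from it about the lists. They were Ccl9, a chemokine for CCR1 (6.87 in Sos1KO against 5.76 in Sos2KO, log2 fold change 1.12, SE of 0.27, adjusted p = 0.0399 by limma), Ackr3, the scavenger receptor for Cxcl12 (9.45 against 7.61, log2 fold change 1.84, adjusted p = 0.0365 by limma), the kinase gene Jak2 (1.32, adjusted p = 0.028 by limma) and the receptor gene Tlr2 (1.19, adjusted p = 0.0461 by limma). Leaving out Sos1KO replicate 2, Sos1KO replicate 3, Sos2KO replicate 1 or Sos2KO replicate 2 ended the call of each (adjusted p = 0.0761 to 0.182 by limma). None of the 4 passed with the spike-in term (adjusted p = 0.0725 to 0.167 by limma) or with the high-GC background covariate (0.349 to 0.633). The macrophage marker mean was 6.44 to 7.40 in Sos1KO against 5.10 to 6.02 in Sos2KO, with all 15 markers above 0 in the difference and Lyz2 past the threshold (3.17, adjusted p = 0.0447 by limma), and their part in these differences was not tested.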

How the data were processed

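The deposited value table holds log2 RMA levels of 29129 probe sets on 12 arrays; per the submitters' processing notes the authors used RMA and R 3.6.3. Differences of its group means match the log2 fold changes of the authors' deposited tables, which fixes scale and direction. Those tables also hold, per the file headers, the t score, the B score, the raw p-value and its adjusted p-value from limma for each probe set listed. The array annotation's genome build is not given in the sources used here, so RefSeq GRCm38.p6 was used only for gene order and promoter sequence. Precision is limited by there being 3 arrays a group.

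The platform annotation gave 19572 probe sets 1 symbol; of 55 genes with several probe sets the one of highest mean was kept, leaving 19505 genes. The limma fit (version 3.58.1, R 4.3.3) had a mean per group over all 12 arrays (8 residual degrees of freedom), two-sided, with Benjamini-Hochberg adjustment over all genes and calls at an adjusted p under 0.05, in 6 pairwise comparisons. On simulated data of Sos1/2DKO against WT (19505 genes, 200 changed), the fit recovered 70% of the changes of 1 log2 unit and 97% of the changes of 2 log2 units and made 8 false calls. The simulated noise was normal and independent between genes and arrays, with no spike-in effect and no single deviating arrays. The measured arrays differ in these respects, so the figures do not give the recovery or false calls of the fit on them.

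The members, the 12 lists (6 of pathways, 6 of cell type markers) and the rule for named genes were chosen with earlier results of these data known. The rule takes all members, up to 4 called genes per list and comparison with the smallest adjusted p, and the 5 genes of highest correlation with Lcn2. Alternatives were cyclic loess, median centring, a filter at the 30th percentile of mean level, all probe sets, a trended robust prior, fits of only the 2 groups, a replicate block, a spike-in term, fits within arrays with or without the spike-in, a high-GC background covariate and each array left out. The spike-in arrays are those with Dap over every WT array by more than 1 log2 unit. Of the 9 neutrophil, 10 epithelial, 7 adipocyte, 7 endothelial, 15 macrophage and 11 fibroblast markers measured, results for endothelial and fibroblast markers in Sos1/2DKO against WT were 1 and 2 lower, none higher. Deviations from group means of same-numbered arrays correlated by over 0.1 in all 3 pairs of Sos2KO and WT (0.108 to 0.305), which were taken as paired from the data, and in at most 1 of 3 pairs between other groups; the labels name no shared litter or day.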

Additional observations from a re-analysis of the deposited data

How the results depend on the processing

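Single fold changes were judged by their direction and their side of the threshold, not by their size. Of 28 single results, recomputed in 439 combinations of result and alternative, 338 kept both, 86 lost the call, 12 gained it and 3 reversed. The 338 include 7 of the Ccl7 minus Ccl2 change, which has no threshold and was judged by its size. Sizes could move without being counted. With the spike-in term, Lcn2 went from 1.65 to 0.162 in Sos1KO against WT and from 1.62 to 0.131 in Sos1/2DKO against WT. In Sos1KO against WT, Lcn2 turned to -0.0863 within the arrays without the spike-in and without Sos1KO replicate 3, each array left out giving -0.0863 to 2.55. In Sos2KO against WT it turned to 0.015 without WT replicate 1, with a range of -0.322 to 0.015. In each case leaving out the array removed the level that set the sign.

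The members called in Sos1/2DKO against WT were 0 within the 7 arrays lacking the spike-in and 1 to 3 with each array left out. In Sos1/2DKO against Sos2KO they were 1 with the spike-in term (Lcn2), 0 with the high-GC covariate and 1 or 2 with arrays left out. Between Sos1/2DKO and Sos1KO they were 0 or 1 with arrays left out. In Sos1KO against Sos2KO there was 1 under cyclic loess, under the filter on dim genes and under the trended prior (Ccl2), and 1 with the spike-in term and within the arrays with the spike-in (Lcn2). In Sos2KO against WT there was 1, Lcn2, with the spike-in term, also when the term was estimated without Sos1KO replicate 3 or without Sos1/2DKO replicate 1, and it was the 1 gene called there.

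Genes called in Sos1KO against WT (121 over all groups) were 274 with the 2 groups alone, 65 with the replicate number as a block, 72 with the spike-in term, 0 within the 7 arrays lacking the spike-in, 196 with the high-GC covariate and 0 to 192 with arrays left out (192, 0 and 39 for Sos1KO replicates 1 to 3, and 0 for replicates 1 and 3 of WT). In Sos2KO against WT they were 0 to 720, the highest without Sos2KO replicate 3. In Sos1/2DKO against WT they were 747 with the 2 groups alone, 377 within the 7 arrays lacking the spike-in and 268 to 1504 with arrays left out (268, 622 and 487 without WT replicates 1, 2 and 3, 706 without Sos1/2DKO replicate 3). Between Sos1/2DKO and Sos1KO they were 0 with the 2 groups alone, within either kind of array and with the high-GC covariate, and 0 to 10 with arrays left out. Between Sos1/2DKO and Sos2KO they were 466 with the 2 groups alone, 289 with the spike-in term, 131 within the arrays with the spike-in and 194 with the high-GC covariate, and 339 to 1660 with arrays left out, with 339 and 443 without Sos2KO replicates 1 and 2. In Sos1KO against Sos2KO they were 12 with the spike-in term, 182 within the arrays with the spike-in and 1 with the high-GC covariate, and 3 to 1870 with arrays left out, with 3 and 24 without Sos1KO replicates 2 and 3 and 18, 12 and 1870 without Sos2KO replicates 1, 2 and 3. The cause was not tested.

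The replicate block changed no member's call. It ended those of Il33 in Sos1/2DKO against WT (adjusted p = 0.0768 by limma) and of Ackr3 and Tlr2 in Sos1KO against Sos2KO (0.0568 and 0.0722), and in Sos2KO against WT it gave 0 genes over all groups and 17 in the 2 groups alone. Outside Sos2KO and WT, same-numbered arrays correlated between -0.345 and 0.253, and 0 to 3 of 6 arrays of a pair of groups correlated best with their own number. The filter on dim genes removed Lcn2 and Cxcl5, whose low levels lay near the background, so their fold changes are uncertain in size.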

Other observations

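Of 125 measured genes of the 6 pathway lists, 10 ranged over 3 log2 units or more across the 12 arrays, chosen after their values were seen. Of the 10, 1 was called in Sos1/2DKO against WT by limma (Lbp), and in 3 (Hp, Lbp and Cd59a) the Sos1/2DKO arrays did not overlap those of WT, as in 24.5% of all genes. Hp, the haemoglobin-binding acute-phase protein haptoglobin, stood at 5.45, 9.09 and 5.95 in Sos1/2DKO, all above the 4.80 to 5.17 of the other 9 arrays, and was not called against WT (adjusted p = 0.133 by limma). Its highest array also had the highest adipocyte marker mean of the 12 (6.66), whose part in the Hp level was not tested. Cp, the copper-carrying ferroxidase ceruloplasmin, was highest on Sos1KO replicate 3 (8.52) and Sos1/2DKO replicate 2 (8.49), against at most 7.06 elsewhere. Serpina3n, an acute-phase protease inhibitor, was 9.13, 6.04 and 4.93 in Sos1/2DKO, 4.66, 8.46 and 8.30 in Sos1KO and 6.04, 5.07 and 9.39 in Sos2KO, against 5.41, 7.30 and 6.13 in WT. The arrays of high Lcn2, Hp, Cp and Serpina3n were thus not the same set.

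The neutrophil chemokine gene Cxcl2 and the macrophage chemokine gene Ccl3 were high on other arrays again. Cxcl2 stood at 7.87 on Sos1KO replicate 1 and 8.17 on WT replicate 2, and Ccl3 at 8.19 and 8.85 on the same arrays. These were the arrays with the highest macrophage marker means, 7.40 and 7.73, and Lcn2 on them was 4.22 and 4.32.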
